A study of Rattus norvegicus with 28 samples.

Results

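The genes of the cytosolic ribosome were examined in the injured rat spinal cord. They were chosen by name from the annotation of the array, as every gene symbol formed like the official symbols of the large-subunit (Rpl, Rplp) and small-subunit (Rps) proteins, with no use of measured values. The rule found 77 of the 35469 gene names on the array, read by 120 of its 41012 probes on 129 of its 43379 spots. Of these, 48 named large-subunit and 29 small-subunit genes. The members covered 73 of the 80 standard ribosomal proteins and included 4 paralogs, namely Rpl10l, Rpl22l1, Rpl26l1 and Rpl7l1. Rpl12, Rps16 and Rplp0 were not analysed here under those symbols, and Rpsa, Fau and Rack1 lie outside the name rule and are given separately.

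Each cytosolic ribosome joins one copy of nearly every one of these proteins to ribosomal RNA, so that cells tend to make them in matched amounts. Their messenger RNAs are among the most abundant of any cell, and most begin with a cytosine followed by a run of pyrimidines, the 5′ terminal oligopyrimidine (TOP) tract, through which the mTOR pathway and the RNA-binding protein LARP1 adjust their translation. Growing and dividing cells, such as the microglia, macrophages and glia that multiply in a contused cord, are known for high ribosome production.

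The study addressed how a severe contusion changes the transcriptome of the spinal cord over time, and what the transplantation of neural progenitor cells (NPCs) alters. All samples came from adult female rats, Sprague Dawley per the study's methods, and each was about 1.5 cm of thoracic cord with the dura removed. The T0 group was sham. The T1, T2, T4 and T8 groups received a 250 kdyn contusion and were sampled 1, 2, 4 and 8 weeks later. The T1_NPC group received NPCs right after the contusion and was sampled at 1 week, and the T2_NPC group received them at 1 week and was sampled at 2 weeks. Every group held 4 samples, 28 in all. The NPCs were grown from cords of adult rats killed 1 week after an injury and were injected into the cord on both sides of the lesion. Per the study's methods, tacrolimus (FK-506 in the labels), an immunosuppressant, was given from the day before transplantation to the end, and injured controls received cell-free medium. The labels do not say which of the untransplanted samples had either. Tissue extracts mix all cell types of the cord, so fewer cells of a type and less RNA per cell cannot be told apart.

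The values are log2 intensities from the authors' quantile-normalised table. For 12 samples the table's column had the same rank order as the scanner output deposited for that sample, and for 16 samples it had the rank order of a scanner output deposited for another group. The groups below are those that the columns of the table name. When the scanner outputs were instead taken under the samples they were deposited for, no ribosomal protein gene was called for T1 against T0, and 0 of 35171 features were called in that comparison. The mean log2 level of 11 microglia and macrophage markers then ran from 10.18 to 13.29 within T0, against 10.22 to 10.42 within T0 in the table. Read through the matched scanner outputs, the table's time-course samples fell into 2 scan sessions that each held all 5 groups, and both transplant groups lay alone in a session of their own.

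Of the 120 member probes, 119 were well above background on all 28 arrays. The exception was the probe of Rpl26l1, a paralog of Rpl26, which passed on 1 array and gets no direction below. No member spot was saturated on any array, although 81.9% of member readings came from the scan at low gain, against 4.02% of all readings. By mean level, 45 members were in the brightest 1% of features and 65 in the brightest 5%.

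The start sites show what most members share in sequence. RefSeq promoters of build GRCr8 matched 62 of the 77 members by symbol or synonym. A cytosine followed by at least 4 pyrimidines, beginning within 10 bases either side of the annotated start and read on the transcript strand, was present in 46 of the 62 (74.2%), against 28.9% of all 33469 promoters and 35.5% of 62 promoters of mitochondrial ribosomal proteins. A tract of 8 or more bases was present in 54.8% of the members, in 7.34% of all promoters and in 3.23% of those of the mitochondrial ribosomal proteins. The windows below, each with 12 bases before the start and 18 from it on, belong to members named in the results, with the tract in capitals where one was found.
Rps15 (chr7:10068098-10068127, minus strand): tgacaccgCTTCCTTTTCCCagcagccgcc
Rpl22 (chr5:168117949-168117978, plus strand): gtgcgCCCCCCTCCCTTTCTgcctcctctg
Rpl10 (chrX:157205838-157205867, plus strand): gcgtgggagcgtCTCTTTTCCTCTggcgcg
Rps26 (chr7:1643387-1643416, minus strand): agccgccgggtCCTCTTTCgagtcttggct
Rpl22l1 (chr2:113683184-113683213, plus strand): ccgtggatatccggttccgagttgcgcagc
Rpl10l (chr6:90281965-90281994, minus strand): ggtctccattttgctgctggcggtgagcac
A tract was found at Rps15, Rpl22, Rpl10 and Rps26, and these letters were not in the windows of the paralogs Rpl22l1 and Rpl10l. The median log2 change at T1 was 0.37 for the 46 members with a tract and 0.46 for the 16 without.

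The probes decide which transcript each value reads. The 60-base probes of 4 members that separate from the rest in the results follow, with their positions in build rn4 and the longest run of adenine and thymine in capitals.
Rps26 (chr7:1919153-1919212, minus strand): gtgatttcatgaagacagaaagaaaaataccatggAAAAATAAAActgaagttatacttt
Rpl22 (chr5:169564366-169564425, plus strand): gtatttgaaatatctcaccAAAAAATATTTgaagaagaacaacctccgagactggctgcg
Rpl22l1 (chr2:116170497-116170556, plus strand): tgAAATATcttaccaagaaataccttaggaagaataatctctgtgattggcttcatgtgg
Rpl3 (chr7:118317348-118318149, minus strand, across an intron): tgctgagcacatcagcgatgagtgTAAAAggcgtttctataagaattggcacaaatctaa
The Rps26 probe had the lowest G and C content of the 120 member probes, 26.67%, against a median of 45%. Over the 120 probes, G and C content and the log2 change had a Spearman rho of 0.28 at T1, 0.10 for T1_NPC against T1 and 0.10 for T2_NPC against T2, as a description, since probes share arrays and genes.

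Rpl10l is an intronless copy of Rpl10 best known from the testis, and its probe resembles one of Rpl10. The pair is shown with the bases that differ within their overlap in capitals.
Rpl10l (chr6:87930391-87930450, minus strand): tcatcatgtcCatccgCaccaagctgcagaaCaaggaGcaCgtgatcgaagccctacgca
Rpl10 (chrX:160336980-160337039, minus strand): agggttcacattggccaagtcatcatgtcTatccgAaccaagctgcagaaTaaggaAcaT
Over 41 aligned bases, 36 were identical (87.8%). Pairs were scored over their whole ungapped overlap of 30 or more bases, and no other pair of probes from different members reached 80% there. Shorter stretches within an overlap were not scored, and the Rpl22 and Rpl22l1 probes printed above have similar ones. It was not tested if either of those probes also reads the other's transcript. Whether the Rpl10l probe also reads Rpl10 was not tested, so its values are uncertain as to the transcript.

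One week after the contusion, ribosomal protein transcripts were higher as a group. In T1 against T0, 46 of the 77 genes were called higher and none was called lower (none at an unadjusted p under 0.05 either), where called means an adjusted p under 0.05 in limma over all features. Of all 35469 features, 19.1% were called higher and 25.1% lower. The median log2 change of the members was 0.37, a 1.3-fold rise, and that of all features was -0.10. All but 3 members had a change above 0, and for 48 members the 4 T1 samples lay above all 4 T0 samples, which held for 17.4% of all features (23.6% had the reverse). Among the brightest 5% of features, 63.1% of the 65 members and 37.2% of the 1708 other features were called higher, and 33.4% of those others were called lower. The matched scanner outputs were also scaled to their 75th percentile in place of the quantile normalisation. Then 30 members were called higher at T1 and none lower, and 18% of all features were called higher. The member median was 0.32 against -0.27 for all features.

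The shift was visible in each sample. For every sample, the median over the 77 genes of the log2 difference from the T0 mean was taken. The T0 samples gave 0.07, -0.08, 0.16 and -0.13, and the T1 samples 0.48, 0.38, 0.30 and 0.35. The T2 samples gave 0.25, 0.45, 0.41 and 0.30, the T4 samples 0.24, 0.21, 0.21 and 0.40, and the T8 samples 0.26, 0.41, 0.21 and 0.42. Every injured sample without a transplant therefore lay above every T0 sample. The spread within groups followed the scan session, since session 2 samples lay below session 1 samples in each of the 5 groups. The fitted session difference was -0.16 for the median member and -0.02 for the median feature. All session 1 samples had columns that matched their own scanner output, and all session 2 samples had columns that matched another's. Session and this mismatch therefore cannot be told apart. Within session 1 the median member change at T1 was 0.38, from 1 sample against 2, and within session 2 it was 0.46, from 3 against 2. At T1, 28 of 48 large-subunit members and 18 of 29 small-subunit members were called higher, with medians of 0.37 and 0.41.

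**Figure D1:**
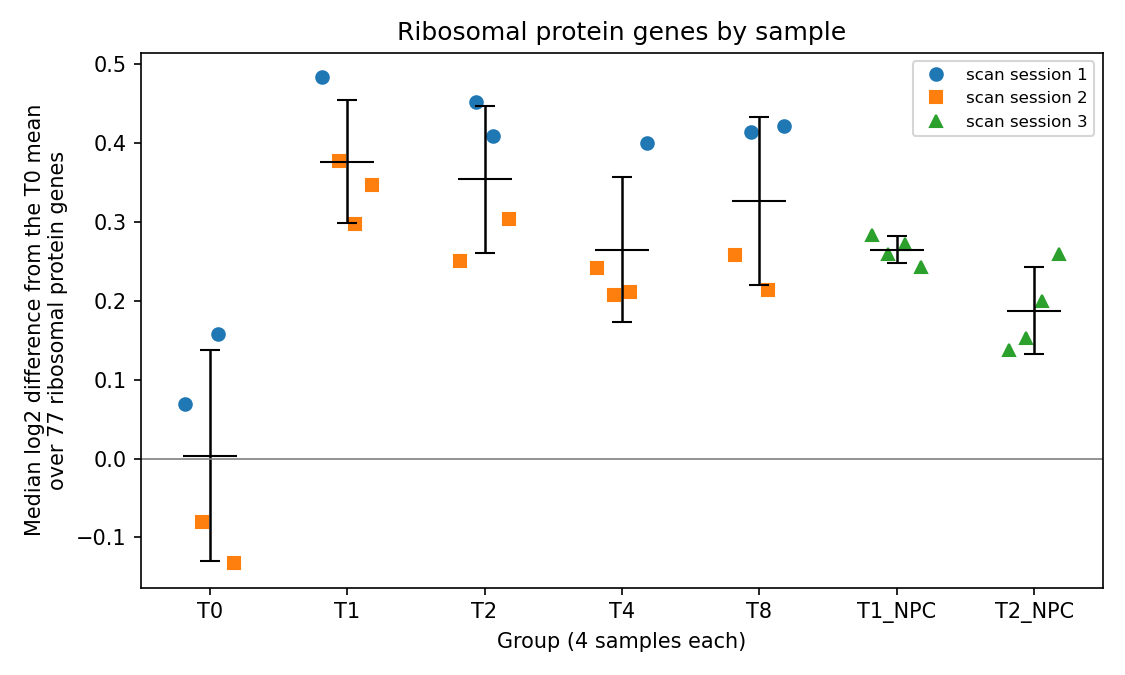
Median over the 77 ribosomal protein genes of the log2 difference from the T0 mean (vertical axis) in each of the 28 samples, by group (horizontal axis), with symbols for the scan session of the matched scanner output and black bars for the mean and SD. The untransplanted injured samples lie between 0.21 and 0.48, above the T0 samples, which lie between -0.13 and 0.16.

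The largest T1 rise among members called was that of Rpl10l, whose levels were 11.48, 10.74, 11.66 and 11.06 in T0 and 13.13, 13.00, 12.22 and 12.72 in T1. The groups did not overlap, and the log2 change was 1.53 ± 0.25 (SE, n = 4 per group, limma adjusted p = 2.04e-05). Rpl10 itself, a protein that joins the large subunit late in its assembly, rose by 0.67 on the log2 scale (limma adjusted p = 4.63e-05).

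Rps26, which lies near the exit of the mRNA channel, read 12.61, 12.93, 12.98 and 12.93 in T0 and 13.58, 14.18, 13.75 and 14.09 in T1. All T1 samples were above all T0 samples, with a log2 change of 1.04 ± 0.24 (SE, limma adjusted p = 0.000852). Rpl22, an RNA-binding protein on the surface of the large subunit, read 13.96, 14.09, 14.06 and 14.08 in T0 and 14.86, 15.13, 15.03 and 15.17 in T1. Its T0 samples were tightly grouped, and its log2 change was 1.00 ± 0.09 (SE, limma adjusted p = 1.02e-08).

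Rps15, a protein of the head of the small subunit, read from 11.70 to 12.21 in the 4 T0 samples and 12.81, 13.00, 12.85 and 13.13 in T1, with a log2 change of 0.94 ± 0.12 (SE, limma adjusted p = 1.00e-06). One of its 2 probes is annotated on the opposite strand, and the probe on the strand of the gene gave 1.25. Rps4x, the X-linked form of the small-subunit protein S4, read 14.52, 14.68, 14.75 and 14.44 in T0 and 15.40, 15.38, 15.31 and 15.55 in T1. The groups were apart, with a log2 change of 0.81 ± 0.10 (SE, limma adjusted p = 3.06e-07).

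**Figure D2:**
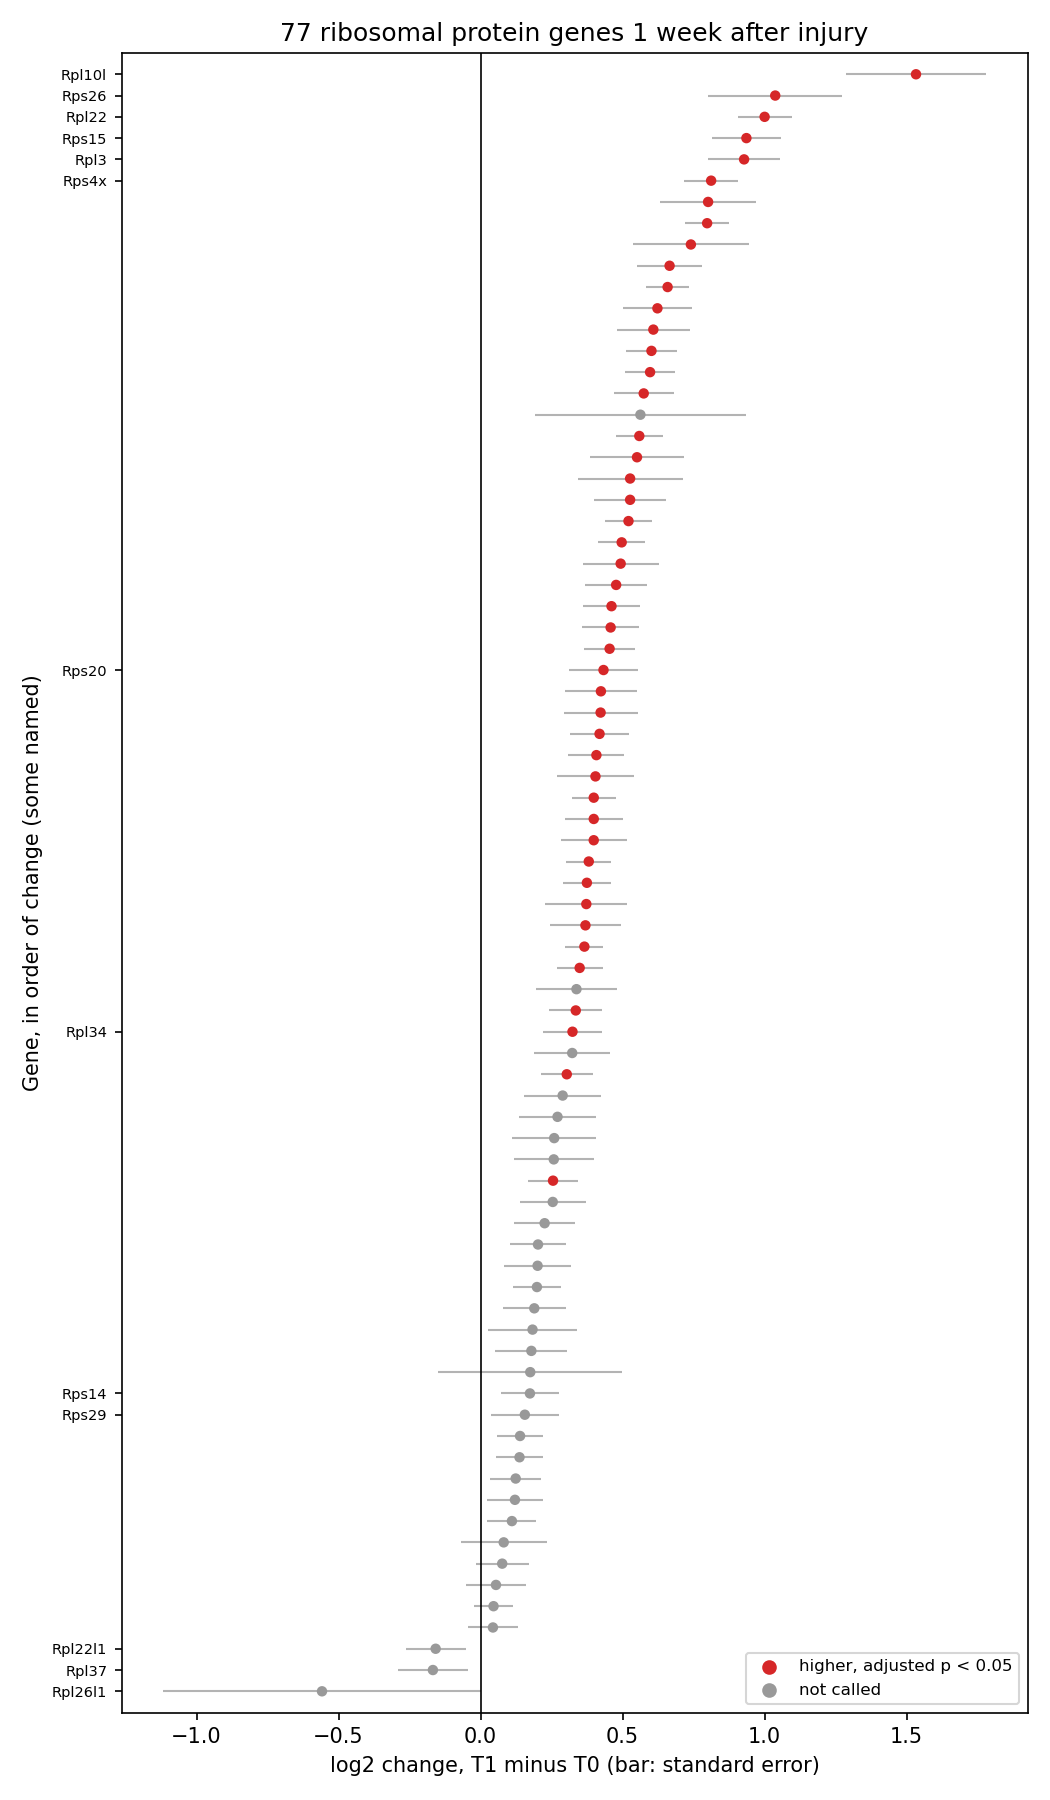
Log2 change from T0 to T1 (horizontal axis, bars are standard errors) for each of the 77 genes (vertical axis, some named), sorted, with the 46 called higher in red and the others in grey. The quartiles of the changes are 0.20 and 0.53, Rpl10l leads at 1.53, and Rpl26l1, Rpl37 and Rpl22l1 are the genes below 0.

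Members with known separate roles were part of the rise or lay under the threshold. Rpl5 and Rpl11, which carry the 5S ribosomal RNA and bind Mdm2 when free of the ribosome, both rose, by 0.50 and 0.46 on the log2 scale (limma adjusted p = 2.56e-05 and 0.000539). Of the acidic stalk proteins that recruit elongation factors, Rplp2 rose by 0.48 (adjusted p = 0.000895), and Rplp1, read from 10 spots of 1 probe, had a log2 change of 0.11 (adjusted p = 0.328). Rps6, the substrate of the S6 kinases, had a log2 change of 0.20 (adjusted p = 0.0652), with 17.79, 17.69, 17.81 and 17.37 in T0 and 17.86, 17.89, 17.90 and 17.81 in T1. Its lowest T1 sample equalled its highest T0 sample, so the groups touched. Among the 9 members whose mutation is known to cause Diamond-Blackfan anaemia, 7 rose, led by Rps26 and by Rps19 at 0.61.

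Ribosomal protein genes often serve as reference genes for quantitative PCR, and 4 of 8 such members were called higher at T1. These were Rps18 at 0.57, Rpl4 at 0.55, Rpl19 at 0.42 and Rpl30 at 0.35 on the log2 scale. The other 4 were Rpl27 at 0.56, Rpl13a at 0.23, Rpl32 at 0.18 and Rps29 at 0.16, each with an adjusted p of 0.0987 or more. For Rpl27 a single reading widened the error, because one of its probes read 9.26 in T1_NPC replicate 4 against a median of 14.67 over all samples, and the scanner software marked that spot as an outlier. Its other probe gave a T1 change of 0.51 (limma adjusted p = 0.00411).

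Of the 5 paralogs on the array, Rpl10l alone was called higher at T1. Rpl22l1, which can take the place of Rpl22 in the ribosome, read 11.65, 11.78, 11.73 and 11.78 in T0, 11.52, 11.58, 11.66 and 11.56 in T1, and 11.01, 11.25, 11.31 and 11.34 in T2. Its T2 samples were all below its T0 samples, and the log2 change was -0.16 ± 0.11 at T1 (SE, limma adjusted p = 0.243), -0.51 at T2 (adjusted p = 0.000366), -0.37 at T4 (adjusted p = 0.00769) and -0.37 at T8 (adjusted p = 0.00615). With its brighter probe alone, the T4 and T8 calls were lost (adjusted p = 0.211 and 0.127). The log2 difference between Rpl22 and Rpl22l1 was thus larger than in T0 by 1.16 ± 0.13 at T1 and 1.32 ± 0.19 at T2 (SD, n = 4), while the 4 T0 samples lay between -0.01 and 0.01. Rpl7l1, a relative of Rpl7 known from ribosome assembly, had a T1 change of 0.26 (adjusted p = 0.145). Rpl36al, a copy of Rpl36a outside the name rule, had 0.09 (adjusted p = 0.698).

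**Figure D3:**
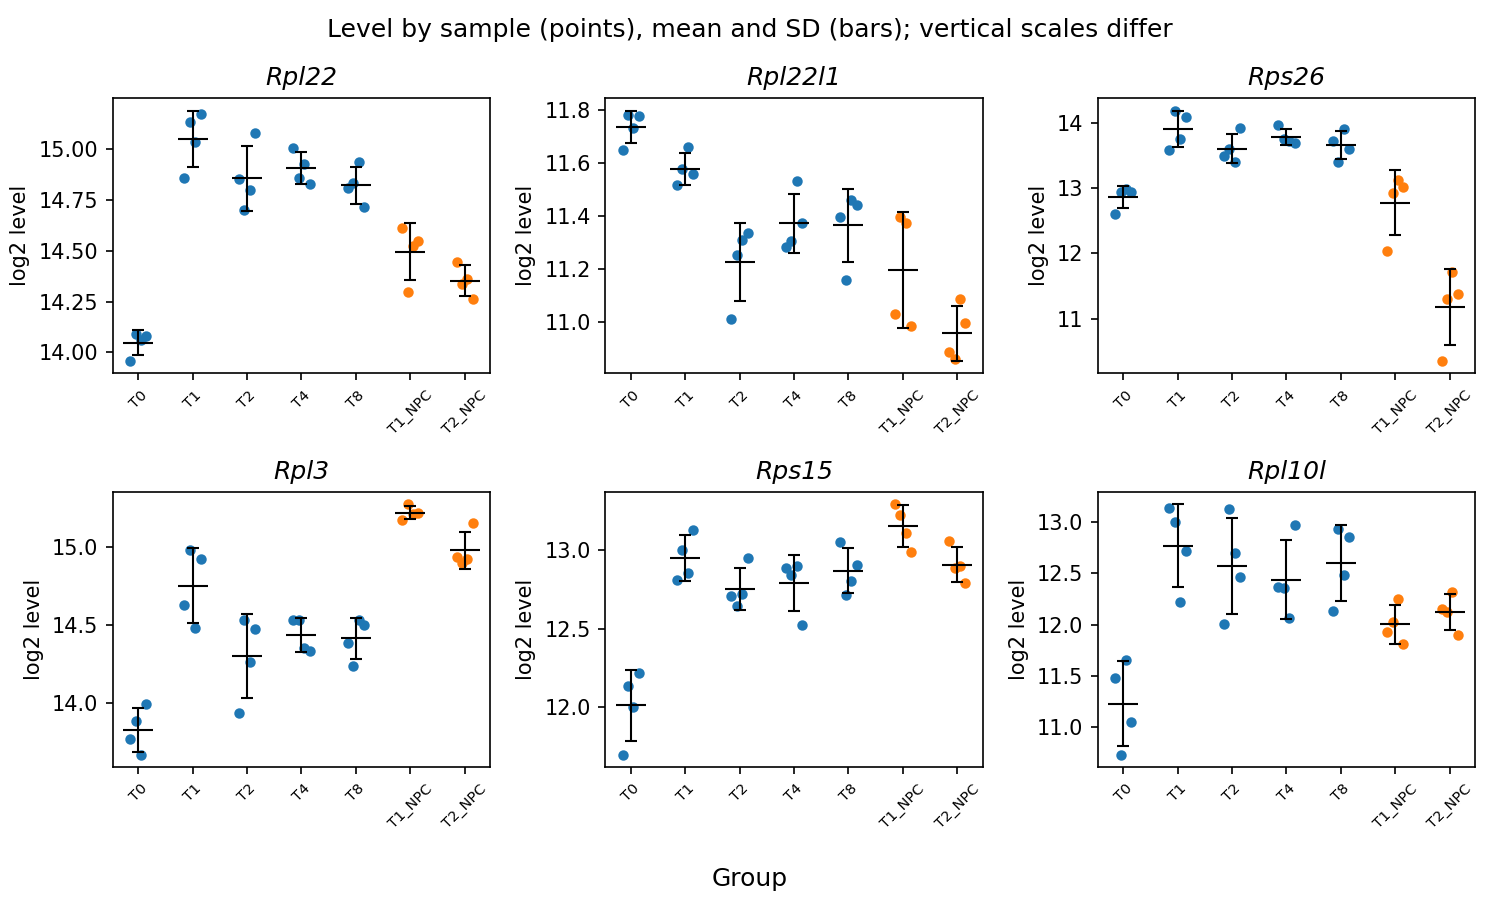
Normalised log2 level (vertical axes, which differ in scale) of 6 members in each sample, by group, with time-course samples in blue, transplant samples in orange and black bars for the mean and SD. Rpl22 rises and Rpl22l1 falls after injury, and Rps26 lies lower and Rpl3 higher in the transplant groups than in the injured groups of the same week.

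Ribosomal proteins whose symbols lie outside the rule followed it in part. Rpsa, the laminin receptor and small-subunit protein, rose by 0.88 on the log2 scale (limma adjusted p = 1.69e-08), and Gnb2l1, the array's name for the scaffold protein Rack1, rose by 0.81 (adjusted p = 3.09e-05). Fau, which encodes a fusion with a small-subunit protein, had a change of 0.17 (adjusted p = 0.301).

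Probes for one gene mostly had the same sign. Of the 120 probes, 113 had a change above 0 at T1, 72 were called higher and 2 lower in the fit over probes. Among the 31 members with several probes, 4 had probes of opposite sign, namely Rpl37a, Rpl15, Rps28 and Rpl37. For Rpl37a, Rps28 and Rpl37, the probes below 0 were placed on another chromosome or on the opposite strand from the gene's brightest probe. In all, 5 probes lay on another chromosome than the gene's brightest probe and 3 on its opposite strand. For Rpl37a it is the brightest probe that lies on chromosome 5, while some of its other probes and the RefSeq promoter lie on chromosome 9. Also, a second probe named Rps7 is described by the array as ribosomal protein S8, so these genes are uncertain.

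The rise was present at every later time. At T2, 42 members were called higher and 1 lower (17.7% and 22.2% of all features), with a median log2 change of 0.33. At T4, 30 were called higher and 1 lower (17.5% and 21% of all features), with a median of 0.24, and at T8, 42 higher and 1 lower (18.2% and 21.5% of all features), with a median of 0.34. The member called lower each time was Rpl22l1. In all, 28 members (36.4%) were called higher at all 4 times, against 12.3% of features, and 69 had a change above 0 at all 4. These comparisons share the T0 samples. Samples whose column matched their own scanner output, here called undisputed, are in the time course the same as the session 1 samples. Undisputed samples alone left 1 T4 sample against 2 of T0, with a member median of 0.24. The T4 calls depended most on the setting, with 55 higher and 1 lower when the scan session was a block, and 16 higher and 1 lower under 75th percentile scaling. That scaling gave 28 calls at T2 and 26 at T8. It called 18.3% of all features higher at T2, 16.8% at T4 and 19.1% at T8. The T4 share of members called higher was thus near that of all features. At T4 the member median was then 0.18, and that of all features was -0.16. Among the brightest 5% of features, 38.5% of members and 34.2% of others were called higher at T4, against 58.5% and 35% at T2 and 56.9% and 36.8% at T8.

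The members with the largest rises at T1 were also called at the later times. Rpl22 was at 14.85, 14.70, 14.80 and 15.08 in T2 and at 14.81, 14.83, 14.93 and 14.71 in T8, with log2 changes from T0 of 0.81 at T2, 0.86 at T4 and 0.77 at T8 (limma adjusted p at most 6.46e-07). Rpl10l had 1.34, 1.21 and 1.37 at the same times, Rps26 0.74, 0.92 and 0.79, Rps15 0.74, 0.78 and 0.86, and Rps4x 0.79, 0.72 and 0.77, all called. Rpl3, whose T1 change of 0.93 was larger than that of Rps4x, was also called higher at each later time. At T2, however, many members had larger changes than Rpl3.

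Between injured groups few members were called. No member was called for T2 against T1, T4 against T2 or T8 against T4 (1.48%, 0.0761% and 0.0902% of all features were called), and at an unadjusted p under 0.05 limma gave 3, 1 and 1 of 77, all lower at the later time. For T8 against T1, with 9.87% of features called, 1 member was called, and it was lower at T8. That call was lost without any one of the T8 samples or of T1 replicates 1, 2 and 4. With the scan session as a block, 3 members were called for T2 against T1 and 8 for T8 against T1, all lower at the later time, and T1 held 1 session 1 sample where T2 and T8 each held 2. At an unadjusted p under 0.05, 6 members were lower. The 95% intervals of the members for T8 against T1 had a median lower bound of -0.28 and a median upper bound of 0.18. With 4 samples per group, changes within that range were therefore not excluded for a typical member.

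Other parts of the translation machinery did not move as one. Of 66 mitochondrial ribosomal protein genes, 27 were called lower and none higher at T1 (25.1% of all features were lower), with a median log2 change of -0.24. The largest falls among those called were those of Mrps2, by 1.51, and Mrps28, by 0.93 on the log2 scale. At T8, 22 of the 66 were called lower and none higher (21.5% of all features were lower). The median changes of cytosolic and mitochondrial ribosomal protein genes were thus of opposite sign.

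The shares called higher in the next lists stand beside 19.1% of all features. Of 10 elongation factor genes, 6 were called higher (60%) and 2 lower at T1. Eef2k, the kinase that inhibits elongation factor 2, rose by 1.01 and Eef2, its substrate, by 0.92, whereas Eef1a2, the elongation factor 1 alpha form of neurons and muscle, fell by 1.49 and Eif5a2 fell by 1.39 on the log2 scale. Of 32 initiation factor genes, 12 were called higher (37.5%) and 5 lower. Eif4ebp1, the mTOR-controlled repressor of cap-dependent initiation, rose by 2.33 and Pabpc1, the poly(A)-binding protein, by 1.40, while Eif1b fell by 0.98 and Eif4a2 by 0.88.

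Of 15 other genes with TOP mRNAs, 12 were called higher (80%) and none lower, with a median of 0.47. Most of these 15 are also in the elongation factor, initiation factor or ribosome biogenesis lists, so the counts of these lists are not separate. Vim, the intermediate filament protein of reactive glia and mesenchymal cells, rose by 4.28, and Pabpc1, given above with the initiation factors, was next. Of 41 ribosome biogenesis genes, 11 were called higher (26.8%) and 2 lower, with a median of 0.17. Ftsj3, an rRNA processing factor, rose by 0.77 and Ncl, the nucleolar protein nucleolin, by 0.76, while Imp3 and Noc4l each fell by 0.31. Of 21 genes that control growth and translation, 9 were called higher (42.9%) and 2 lower. Myc, a transcription factor that drives ribosome production, rose by 1.75 and Akt1, a kinase upstream of mTOR, by 1.15, while Mycn fell by 0.85 and Rheb, the activator of mTOR, by 0.27.

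**Figure D4:**
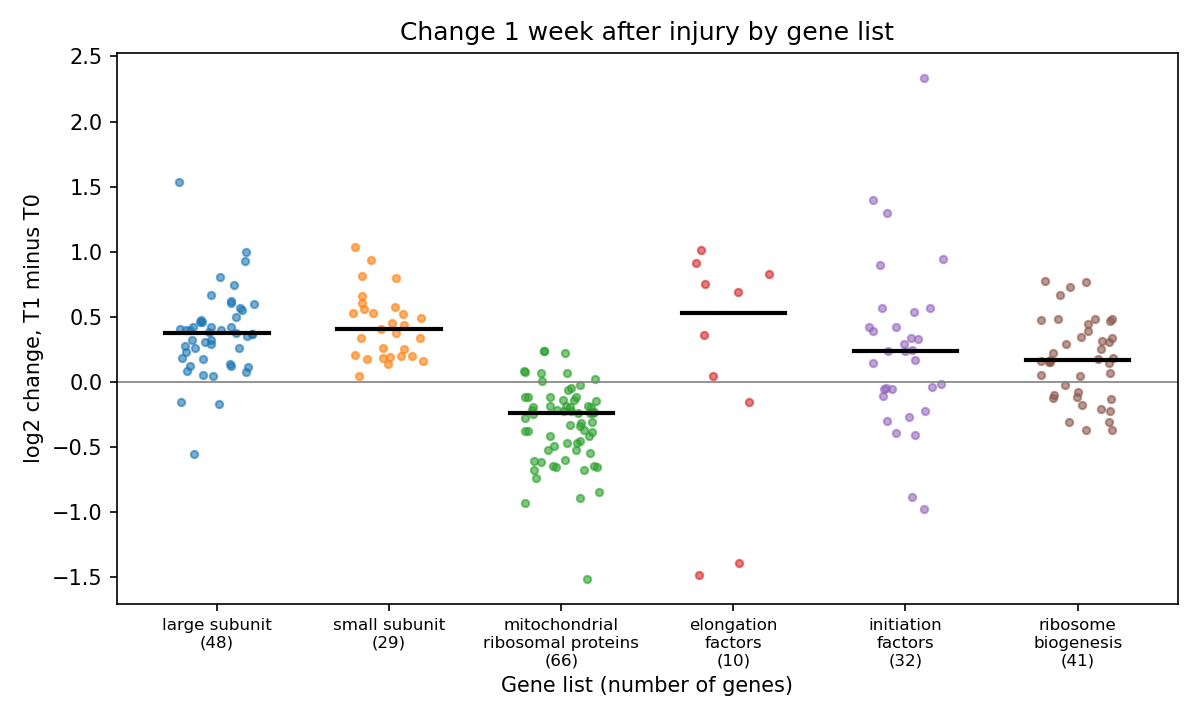
Log2 change from T0 to T1 (vertical axis) of each gene, as points, in 6 lists (horizontal axis, with the number of genes), with the list median as a black line. The cytosolic large-subunit and small-subunit medians are 0.37 and 0.41, and that of the mitochondrial ribosomal proteins is -0.24.

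Markers of several cell types moved in the same samples. At T1 all 11 microglia and macrophage markers, all 8 T cell markers and all 7 proliferation markers were called higher, and 10 of 11 neuronal markers and 4 of 7 oligodendrocyte markers were called lower. The mean log2 level of the microglia and macrophage markers ranged from 10.22 to 10.42 in T0 and from 13.26 to 13.80 in T1, and that of the neuronal markers from 12.13 to 12.42 in T0 and from 10.12 to 11.09 in T1. The proliferation markers went from a median of 8.24 in T0 to 11.08 in T1 and 9.03 in T8, while the mean level of the 77 members had a median of 15.03 in T0, 15.42 in T1 and 15.38 in T8. The part of these cell types in the ribosomal protein values was not tested.

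After transplantation, ribosomal protein transcripts were lower than in the injured groups of the same week for a minority of genes. In T1_NPC against T1, 12 members were called lower and 1 higher (6.46% of all features lower and 5.45% higher), with a median log2 change of -0.13. These calls numbered 2 when only T1 and T1_NPC were fitted and 7 without T1 replicate 1. In T2_NPC against T2, 14 were called lower and 1 higher (4.85% and 4.62% of all features), with a median of -0.17. The medians of all features were -0.01 and -0.03. Under 75th percentile scaling the member medians were -0.23 and -0.38, those of all features 0.10 and -0.08, and the calls 19 and 31 lower with 1 higher in each. In T1_NPC that scaling called 20.8% of all features, and 14.8% of all features were called higher. All 4 transplant samples lay below all 4 injured samples for 18 members in the first comparison and for 26 in the second, which held for 8.2% and 9.4% of all features. The reverse held for 2 members and 1 member, and for 8.12% and 9.97% of all features. Transplantation and scan session 3 cannot be told apart. By the matched scanner outputs, each transplant group also lay alone on a slide of its own. Neither transplant group can therefore be told apart from its slide, nor a difference between the transplant effects from one between these slides. The difference of -0.16 between the other sessions, given above for the median member, stands beside these medians.

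Some marker levels also differed. The mean log2 level of the oligodendrocyte markers was 14.91 to 14.99 in T2_NPC and 14.25 to 14.62 in T2, and that of the microglia and macrophage markers 13.39 to 13.56 and 13.15 to 13.35, with 2 markers of each list called higher. The proliferation markers had a median of 9.73 in T2_NPC and 10.25 in T2, and 2 of 7 were called lower. The red blood cell markers had a median of 9.54 in T2_NPC and 8.84 in T2, with overlapping ranges of 8.74 to 10.45 and 7.94 to 9.29. In T1_NPC 1 proliferation and 1 skeletal muscle marker were called lower, and no marker of neurons, oligodendrocytes, astrocytes, microglia and macrophages or T cells was called. The part of these markers in the ribosomal protein values was not tested.

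By sample, the median member stood above the T0 mean by 0.28, 0.26, 0.27 and 0.24 in T1_NPC and by 0.14, 0.15, 0.20 and 0.26 in T2_NPC. The T1_NPC samples lay above all T0 samples and below all T1 samples. Of the T2_NPC samples, 2 lay within the T0 range. These 2 comparisons share no samples, and 8 members were called lower in both, namely Rpl13, Rpl22, Rpl23a, Rpl34, Rps13, Rps14, Rps21 and Rps26. That is 66.7% of those lower in T1_NPC and 57.1% of those lower in T2_NPC, against 34% and 45.3% for all features, with session 3 common to both.

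Rps26 fell furthest. It read 12.04, 12.93, 13.13 and 13.02 in T1_NPC and 10.36, 11.31, 11.71 and 11.37 in T2_NPC. The T2_NPC samples were below every other sample of the series, and the log2 changes were -1.13 ± 0.24 against T1 (SE, limma adjusted p = 0.00329) and -2.41 ± 0.24 against T2 (adjusted p = 7.46e-07), a fall to 0.188 of the T2 level. The difference between both transplant effects was 1.29 ± 0.33 (SE, adjusted p = 0.0992), which did not pass the threshold. This gene has 1 probe on the array, whose sequence is given above.

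Rpl22 read 14.61, 14.30, 14.52 and 14.55 in T1_NPC and 14.45, 14.34, 14.36 and 14.26 in T2_NPC, between the T0 and the injured samples, with log2 changes of -0.55 (limma adjusted p = 0.000641) and -0.50 (adjusted p = 0.00167). Rpl34, a large-subunit protein, read 15.39, 15.35, 15.50 and 15.73 in T1_NPC against 16.10, 16.10, 16.07 and 16.12 in T1, a log2 change of -0.61 (adjusted p = 0.000539). Rpl10l changed by -0.76 in T1_NPC (adjusted p = 0.0457), a call that was lost without any one of T1 replicates 1, 2 or 4 or of T1_NPC replicates 1, 2 or 4 (adjusted p up to 0.134).

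The next largest falls in T2_NPC were those of small-subunit members. Rps14, known from the 5q deletion syndrome, read 15.88, 15.61, 15.81 and 15.98 in T2_NPC against 16.62, 16.46, 16.24 and 16.32 in T2, with no overlap and a log2 change of -0.59 (limma adjusted p = 0.00097). Rps20 read 15.44, 15.47, 15.49 and 15.54 against 15.85, 16.27, 16.23 and 15.92, a change of -0.58 (adjusted p = 0.00404). Rps29 read 15.68, 16.38, 16.28 and 16.36 against 16.81, 16.74, 16.56 and 16.78, a change of -0.55 (adjusted p = 0.00535).

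Rpl3, a large-subunit protein that reaches towards the peptidyl transferase centre, was the member called higher in both comparisons. It read 13.76, 13.88, 13.67 and 13.99 in T0, 14.63, 14.98, 14.48 and 14.93 in T1, and 15.17, 15.28, 15.22 and 15.22 in T1_NPC. It read 13.93, 14.54, 14.26 and 14.48 in T2 and 14.94, 14.90, 14.92 and 15.16 in T2_NPC. The T1_NPC samples were above every untransplanted sample and the T2_NPC samples above all T2 samples, with log2 changes of 0.47 ± 0.13 (SE, limma adjusted p = 0.018) and 0.68 ± 0.13 (adjusted p = 0.0016). The T1_NPC call was lost without T1 replicate 1 or without T1 replicate 3 (adjusted p = 0.0556 and 0.0748).

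**Figure D5:**
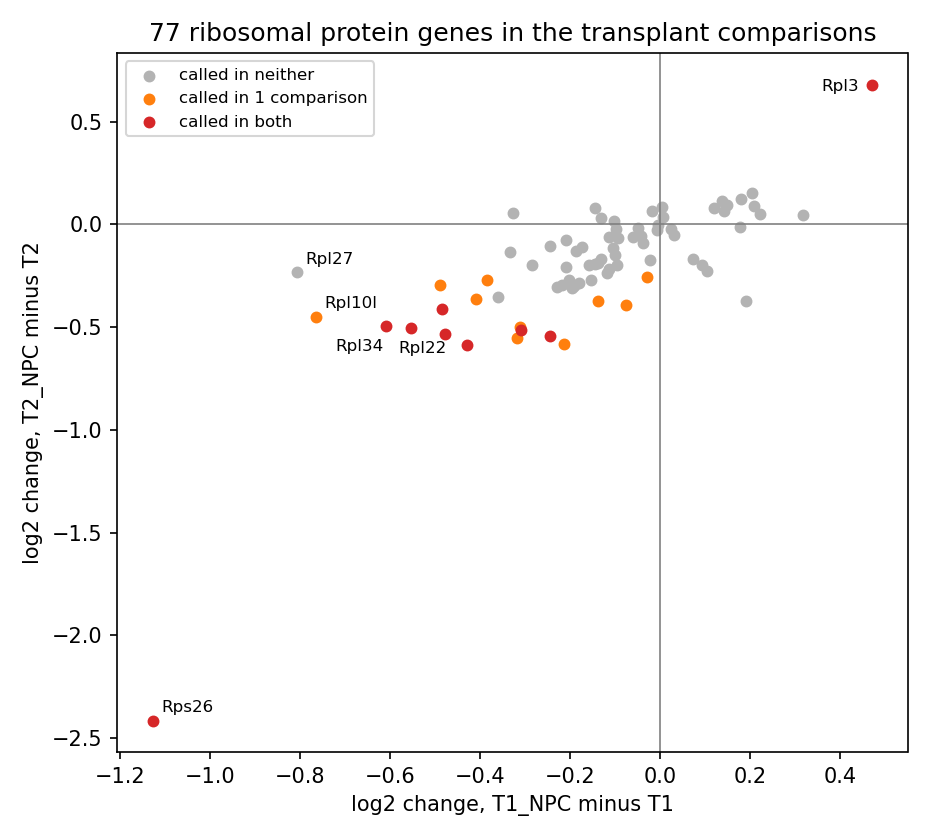
Log2 change in T1_NPC against T1 (horizontal axis) and in T2_NPC against T2 (vertical axis) for each of the 77 genes, coloured by whether it was called in neither, 1 or both comparisons. Most genes lie slightly below 0 on both axes, Rps26 lies at -1.13 and -2.41, and Rpl3 at 0.47 and 0.68.

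Among members with special roles, the transplant comparisons gave no call for Rpl5, Rpl11, Rplp1, Rplp2 or Rps6, with log2 changes between -0.30 and 0.00. Rpl22l1 changed by -0.38 in T1_NPC (limma adjusted p = 0.0199) and by -0.27 in T2_NPC (adjusted p = 0.108). Outside the name rule, Rpl36al changed by -0.53 and -0.62, called in both comparisons. Of the 66 mitochondrial ribosomal protein genes, 4 were called lower in T1_NPC and 5 in T2_NPC (6.46% and 4.85% of all features were lower), with none higher and medians of -0.12 and -0.13. No member passed the threshold for a difference between the transplant effects (limma, 0.299% of all features called, and 7 of 77 members at an unadjusted p under 0.05).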

How the data were processed

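Total RNA of 28 samples was labelled with Cy3 and hybridised to Agilent whole rat genome arrays of 60-base probes. Per the file headers, the authors extracted signals with Agilent Feature Extraction 10.7.1.1, with probes placed on rn4. Per the study's methods, the deposited log2 value table was then background-corrected and quantile-normalised, which forces 1 distribution on all arrays. The deposited scanner intensities served for background flags, slides, scan sessions and alternatives. Intensities give no counting depth, and the number of arrays limits the precision.

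Control spots were left out, and spots, then probes, were averaged per gene name. A mean per group was fitted to all 28 samples with limma 3.58.1 (R 4.3.3), with Benjamini-Hochberg adjustment over 35469 features and calls at 0.05. The code was checked on simulated data. Genes named were the up to 4 largest rises and 4 largest falls called in each of 6 comparisons, every measured gene of the lists of paralogs, stalk, 5S, S6, reference and differently named ribosomal proteins, and the 2 largest rises and falls at T1 in other lists. Rps19, Rpl10, the 8 members lower in both transplant comparisons and the members with discordant probes were named after their values were seen. Some genes are not reported here by name. The members and lists were chosen with earlier results of these data known. The labels do not say that replicates came from separate animals, although the methods speak of 4 animals per group, so p-values measure the spread between these samples. Same-numbered samples of different groups had deviations that correlated between -0.34 and 0.30 (median 0.00), so replicate numbers were not taken as pairs.

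Alternatives were matched or deposited scanner outputs, another scaling or background correction, undisputed samples alone, dim or secondary probes left out, slide, session or replicate as a block, subsets of the groups, and each sample left out. The percentile scaling, added settings and their values are in the closing section.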

Additional observations from a re-analysis of the deposited data

Results flagged for a closer look

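Within each group of 4, 32 series of values were searched for a sample far from the other 3 for its group's range. These were the per-sample median of the members and the levels of ribosomal protein genes named in the text or in its lists. In 17 of 224 sets of 4 values the highest or lowest sample stood that far apart, and chance alone gives about 1 in 20 such sets. The largest gap was that of Rpl27 in T1_NPC, where replicate 4 read 12.04 and the nearest sample 14.78, from the single probe reading described above. Among transplant samples, Rps29 read 15.68 in T2_NPC replicate 1 (nearest 16.28), Rpl19 read 14.98 in the same sample (nearest 15.41), and Rpl13a read 16.47 in T1_NPC replicate 2 (nearest 16.84). Rpl3 read 15.16 in T2_NPC replicate 4 (nearest 14.94), Rpl7l1 read 9.69 in that sample (nearest 9.39), and Rpl11 read 16.35 in T2_NPC replicate 3, apart by less than the printed precision. Rpl26l1 read 2.27 in T1_NPC replicate 4 (nearest 1.61), at a level not well above background.

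Among time-course samples, Rps26 read 12.61 in T0 replicate 1 (nearest 12.93). In T1 replicate 1, Fau read 16.15 (nearest 15.83), Rpl41 read 17.30 (nearest 16.95) and Rpl4 read 14.70 (nearest 15.04), and in T1 replicate 2, Rpl30 read 15.55 (nearest 15.48). In T4 replicate 4, Rpl11 read 16.40 (nearest 16.24), Rpl27 read 14.99 (nearest 14.70) and Rps15 read 12.52 (nearest 12.84), and in T4 replicate 3, Rpsa read 13.53 (nearest 13.64). T1 replicate 1 and T4 replicate 4 were the session 1 samples of their groups.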

How the results depend on the processing

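The number of members called kept within 1.5 times its value in 199 of 247 recomputed counts. With scanner outputs taken under the samples they were deposited for, 0 members were called in any of the 4 injured groups against T0, in T1_NPC against T1 and in T8 against T1, and 1 in T2_NPC against T2. There the T1_NPC median turned to 0.048, and signs turned for Rps26 at T1 (-0.012) and, in T1_NPC, for Rpl3 (-0.30), Rps26 (0.58), Rpl34 (0.32) and Rpl22 (0.29). With undisputed samples alone, T1 and T4 held 1 sample each, so no counts are given for their comparisons. The T4 member median was then 0.24 against 2 T0 samples. In T2_NPC, 31 were called, from session 3 samples against 2 session 1 samples of T2, and T1_NPC against T1 could not be had. With matched scanner outputs scaled to their 75th percentile, the injured groups in order of time had 30, 28, 17 and 26 calls against T0, followed by 20 in T1_NPC, 32 in T2_NPC, 0 for T8 against T1 and 1 for the difference of transplant effects. That scaling called 18%, 18.3%, 16.8% and 19.1% of all features higher in the injured groups in order of time. It moved the median of all features to -0.27 at T1, and the member median was 0.32. Slide or scan session as a block gave 56 calls each at T4, 3 each for T2 against T1, and 7 and 8 for T8 against T1. For T8 against T1, matched quantile values gave 2, normexp on median signals 3, dim probes left out 2, a trended and robust fit 3 and equal medians 3, while only the groups compared, the time course alone and session 2 alone gave 0. Normexp gave 1 call for the difference of transplant effects, the trended fit 1 for T2 against T1, and fitting only the groups compared 2 in T1_NPC. Normexp on median signals, equal medians and session 2 alone were chosen after seeing the data, and normexp on mean signals was not run because only some files hold them. With the replicate number as a block, 45 members were called at T1 and 0 for T8 against T1, and no other count moved by over 1.5 times. The numbers showed no sign of pairing the samples. Leaving out 1 sample at a time gave 42 to 53 calls at T1, 36 to 49 at T2, 25 to 38 at T4 and 35 to 50 at T8. It gave 7 to 11 in T1_NPC (7 without T1 replicate 1), 14 to 16 in T2_NPC, 0 to 1 for T2 against T1, 0 to 3 for T8 against T1 and 0 to 1 for the difference of transplant effects.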
